A study of Caenorhabditis elegans with 4 samples.

Results

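The mir-58/80/81/82 family of *C. elegans*, the worm relatives of *Drosophila* bantam, was followed through small RNA libraries of day 0 adults. Members were chosen by name, as the hairpins cel-mir-58a, cel-mir-58b, cel-mir-80, cel-mir-81 and cel-mir-82 with their 5p and 3p strands, which gave 10 of the 434 mature miRNAs counted and 5 of the 250 hairpins. Reads were found for 8 of the 10 strands, and mir-58b had none. Each of 4 strains of hermaphrodites gave 1 library, made from RNA of a pool of worms. The *glp-1(e2144)* mutants (CF1903), which do not form a germline at the temperature used, and WT (N2 Bristol) were kept at 25 °C. ALG-1/OE worms (CT20) carry the integrated array zaIs5, in which the *alg-1* promoter drives a GFP::ALG-1 fusion. Their control, ctrl (PE255), carries feIs5, in which the *sur-5* promoter drives luciferase::GFP. The series' design text calls CT20 the control, whereas the sample titles and the study's methods make CT20 the overexpressing strain, as used here. With the strains exchanged, every log2 ratio of ALG-1/OE over ctrl would change sign. The ratios of ctrl over WT would then belong to the overexpressing strain, not to a pair of control libraries. Both transgenic strains were kept at 20 °C and also carry the *rol-6(su1006)* marker, which WT and *glp-1(e2144)* lack.

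A miRNA hairpin is cut into a duplex, and 1 of its strands is retained by an Argonaute such as ALG-1 while the other is mostly degraded. The retained strand pairs with messenger RNAs through its seed, the bases near its 5′ end, and miRNAs that share a seed can repress the same targets. In this family the retained strand is the 3p strand. In worms, loss of single members leaves few visible defects, whereas worms without mir-58a, mir-80, mir-81 and mir-82 together are small, lay eggs poorly and fail to form dauer larvae. Components of TGF-β signalling and the p38 kinase gene *pmk-2* are among the known targets. mir-80 has also been linked to dietary restriction, and *Drosophila* bantam promotes growth and blocks cell death.

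With 1 library per strain there is no replicate check of any difference, and no test between strains was made. The 95% intervals below are exact Clopper-Pearson intervals on the reads. They cover counting error only, and reads are not independent molecules. The *glp-1(e2144)* library held 536907 mature miRNA reads, that of WT 211140, that of ALG-1/OE 238172 and that of ctrl 175048, and levels are given as a share of these reads or in RPM (reads per 1000000 mature miRNA reads). A ratio between strains is therefore a ratio of shares, given on the log2 scale unless named otherwise. Such a share also moves when other miRNAs move. The oocyte and embryo miRNAs of the miR-35 family (miR-35 to miR-42) took 0.0756% of the reads in *glp-1(e2144)* mutants against 11.3% in WT, while ALG-1/OE worms had 8.78% against 6.51% in ctrl. In these whole worms muscle miR-1 had between 9 and 29 reads per library, lin-4 between 1 and 18, and the sensory neuron miRNA miR-124 between 0 and 2, whereas let-7 had between 809 and 2867. Of the miR-1 reads, 27 of 29 in *glp-1(e2144)* and all 12 in WT were of its 5p strand. The origin of these low counts was not tested, and they are not read as tissue levels.

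The members lie at 4 places in the genome. The deposited coordinates of all 5 hairpins equal those of WBcel235, although the processing notes name ce10, and they are given here as deposited. mir-58a lies on chromosome IV from 3233254 to 3233350 on the plus strand, in an intron of the protein-coding gene Y67D8A.2 on the same strand, and its 5p strand overlaps the non-coding RNA Y67D8A.6. mir-58b is also on chromosome IV, from 6660461 to 6660519 on the minus strand, with no overlapping gene other than itself. A further hairpin annotated as mir-58c lies 114 bases from it. No counted hairpin began at its coordinates, and it was not analysed here. mir-80 lies on chromosome III from 8865270 to 8865367 on the minus strand. It overlaps the exonic sequence of the non-coding RNA K01F9.6 on the plus strand, and the nearest other miRNA, mir-238, is 1960 bases away.

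mir-81 and mir-82 lie on chromosome X within introns of *gid-2*, which is on the minus strand. mir-81 runs from 2431072 to 2431179 on the plus strand, opposite to *gid-2*, and mir-82 from 2435258 to 2435354 on the minus strand. The hairpins are 4078 bases apart. The 3p strands of mir-81 and mir-82 are known to be nearly identical, so their reads may be divided between them with error, and their sum is given beside the single values. None of the family's hairpins overlapped another counted hairpin.

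The family took between 29.1% and 36.2% of all miRNA reads in a library. It made up 33.8% (95% interval 33.7% to 33.9%) of the mature reads in *glp-1(e2144)* mutants against 31.0% (30.8% to 31.2%) in WT, while ALG-1/OE worms had 29.1% (28.9% to 29.3%) against 36.2% (36.0% to 36.4%) in ctrl. The lowest and the highest share were thus those of the 20 °C strains. The log2 ratio of the summed reads was 0.12 (0.11 to 0.14) for *glp-1(e2144)* over WT and -0.32 (-0.33 to -0.30) for ALG-1/OE over ctrl. Between the control libraries, ctrl over WT, it was 0.22 (0.21 to 0.24), larger than the difference between *glp-1(e2144)* and WT. These strains differ in transgene and in temperature, which cannot be told apart. In RNA of whole worms, fewer cells of a type and less RNA per cell cannot be told apart either.

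The ratio of *glp-1(e2144)* over WT took its direction from the reads it was set against. With miR-35 to miR-42 left out of the total, the bantam family made up 33.8% of the remaining reads in *glp-1(e2144)* mutants and 35.0% in WT, and the log2 ratio was -0.048 (-0.06 to -0.04). The same step gave 31.9% in ALG-1/OE and 38.7% in ctrl, with a log2 ratio of -0.28. For ALG-1/OE over ctrl the ratio stayed below 0 under each of the scalings tried, with -0.49 as the lowest, by TMM factors. All of these scalings were built from miRNA reads. The study's own scaling, by all reads per sample, was not tried, so the sign on that scale is not known here. The other families set beside it, which do not cover all abundant miRNAs, had smaller shares. The miR-51 to miR-56 family held 1.42% in *glp-1(e2144)* mutants against 1.97% in WT, while ALG-1/OE worms had 1.97% against 2.24% in ctrl. The let-7 family (let-7, miR-48, miR-84 and miR-241), which times the larval to adult switch, held 3.84% in *glp-1(e2144)* mutants against 2.61% in WT, while ALG-1/OE worms had 3.56% against 3.82% in ctrl. The family of miR-44, miR-45, miR-61 and miR-247 held 0.142% in *glp-1(e2144)* mutants against 0.317% in WT, while ALG-1/OE worms had 0.243% against 0.175% in ctrl.

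**Figure D1:**
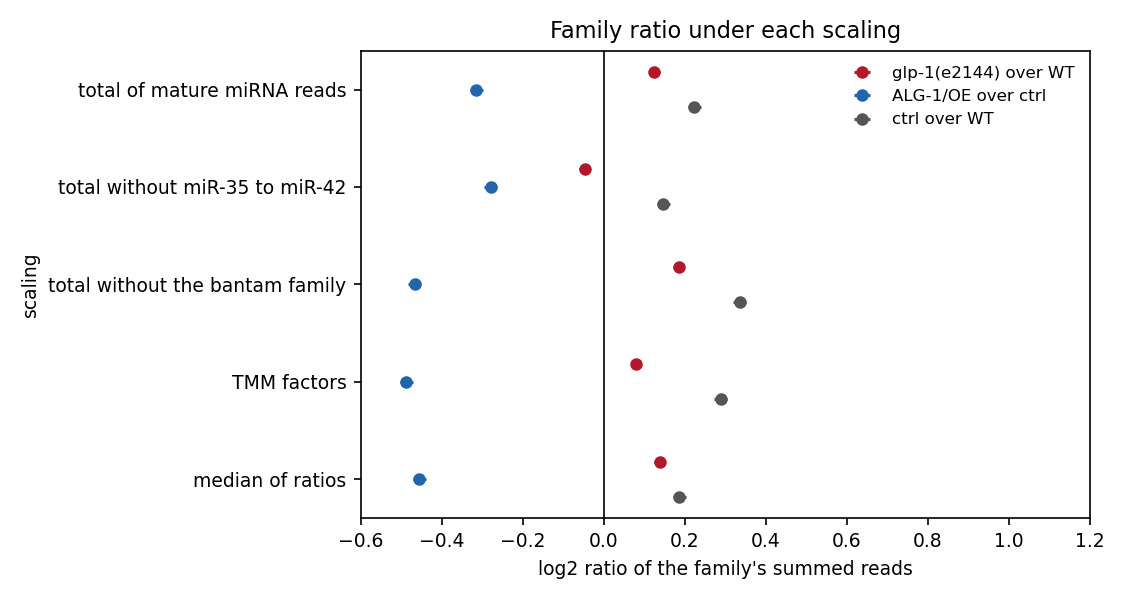
Log2 ratio of the family's summed mature reads (x axis) under 5 scalings (rows) for *glp-1(e2144)* over WT, ALG-1/OE over ctrl and ctrl over WT. Bars are 95% counting intervals. The values for ALG-1/OE lie between -0.49 and -0.28 and those for ctrl over WT between 0.15 and 0.34, while the value for *glp-1(e2144)* is 0.12 against the total of miRNA reads and -0.048 without miR-35 to miR-42.

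The 3p strands held nearly all of the family's reads, and miR-82-3p was the most abundant miRNA of every library. It had 85299 reads in *glp-1(e2144)* mutants against 33404 in WT, while ALG-1/OE worms had 37790 against 35943 in ctrl. As a share of miRNA reads this was 15.9% in *glp-1(e2144)* mutants against 15.8% in WT, while ALG-1/OE worms had 15.9% against 20.5% in ctrl. The *glp-1(e2144)*, WT and ALG-1/OE libraries did not differ beyond counting error and ctrl stood above them. The log2 ratio was 0.01 (-0.01 to 0.02) for *glp-1(e2144)* over WT and -0.37 (-0.39 to -0.35) for ALG-1/OE over ctrl. With miR-35 to miR-42 left out of the total, *glp-1(e2144)* over WT gave -0.17 (-0.18 to -0.15), and with TMM factors -0.04 (-0.06 to -0.02). On the scale of all miRNA reads miR-82-3p was thus alike in *glp-1(e2144)* and WT, and on some of the other scalings it was not.

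miR-81-3p, made from the hairpin beside mir-82, had 35977 reads in *glp-1(e2144)* mutants against 11621 in WT, while ALG-1/OE worms had 13187 against 8407 in ctrl. Its share was 6.70% in *glp-1(e2144)* mutants against 5.50% in WT, while ALG-1/OE worms had 5.54% against 4.80% in ctrl. ALG-1/OE and WT did not differ beyond counting error, with *glp-1(e2144)* above and ctrl below them. The log2 ratio was 0.28 (0.25 to 0.31) for *glp-1(e2144)* over WT and 0.21 (0.17 to 0.24) for ALG-1/OE over ctrl. miR-81-3p was the only one of the 4 abundant 3p strands with a higher share in ALG-1/OE than in ctrl. The size of this difference depended on the scaling, and with TMM factors it was 0.03 (-0.01 to 0.07), within counting error.

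Reads of miR-81-3p and miR-82-3p together made up 22.6% of miRNA reads in *glp-1(e2144)* mutants against 21.3% in WT, while ALG-1/OE worms had 21.4% against 25.3% in ctrl. Their sum had a log2 ratio of 0.08 (0.07 to 0.10) for *glp-1(e2144)* over WT and -0.24 (-0.26 to -0.22) for ALG-1/OE over ctrl, the opposite sign to miR-81-3p alone. The number of miR-82-3p reads per miR-81-3p read, which does not depend on the scaling, was 2.37 (2.34 to 2.40) in *glp-1(e2144)* and 2.87 (2.81 to 2.94) in WT. It was 2.87 (2.81 to 2.92) in ALG-1/OE and 4.28 (4.17 to 4.38) in ctrl. ALG-1/OE and WT thus had the same balance within counting error, and ctrl had the most miR-82-3p for its miR-81-3p. Misassigned reads between these strands were not tested.

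miR-80-3p, from the separate locus on chromosome III, had 34351 reads in *glp-1(e2144)* mutants against 10976 in WT, while ALG-1/OE worms had 9776 against 9104 in ctrl. Its share was 6.40% in *glp-1(e2144)* mutants against 5.20% in WT, while ALG-1/OE worms had 4.10% against 5.20% in ctrl. WT and ctrl did not differ beyond counting error, with a log2 ratio of ctrl over WT of 0.00067 (-0.04 to 0.04), while *glp-1(e2144)* lay above and ALG-1/OE below both. The log2 ratio was 0.30 (0.27 to 0.33) for *glp-1(e2144)* over WT and -0.34 (-0.38 to -0.30) for ALG-1/OE over ctrl. In *glp-1(e2144)* it was 0.13 (0.10 to 0.16) with miR-35 to miR-42 left out of the total. miR-80-3p was the one abundant strand of the family whose share of all miRNA reads was alike in both control libraries, and other scalings put its log2 ratio of ctrl over WT between -0.08 without miR-35 to miR-42 and 0.11 without the bantam family.

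miR-58a-3p, from the intron of Y67D8A.2, was the least abundant of the 3p strands with reads in all libraries but ctrl, where miR-81-3p was. It had 23987 reads in *glp-1(e2144)* mutants against 8832 in WT, while ALG-1/OE worms had 7782 against 9034 in ctrl. Its share was 4.47% in *glp-1(e2144)* mutants against 4.18% in WT, while ALG-1/OE worms had 3.27% against 5.16% in ctrl. All neighbours in the order ctrl, *glp-1(e2144)*, WT and ALG-1/OE differed beyond counting error. The log2 ratio of ALG-1/OE over ctrl, -0.66 (-0.70 to -0.62), was the lowest of the 3p strands, and ctrl lay above WT by 0.30 (0.26 to 0.35). For *glp-1(e2144)* over WT it was 0.09 (0.06 to 0.13), and -0.078 (-0.11 to -0.04) with miR-35 to miR-42 left out of the total.

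**Figure D2:**
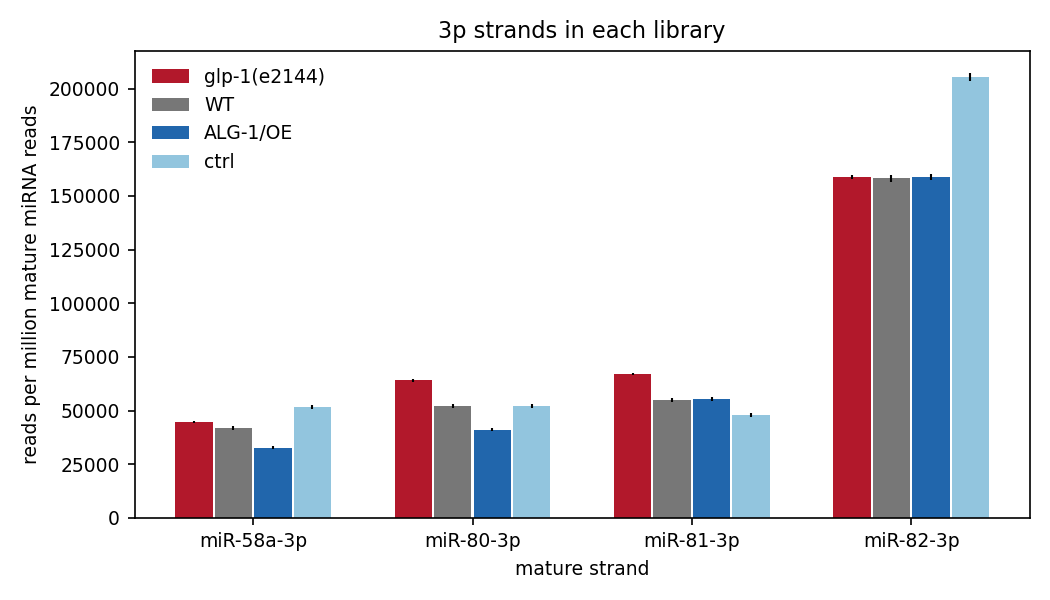
Level in RPM (y axis) of miR-58a-3p, miR-80-3p, miR-81-3p and miR-82-3p in the 4 libraries, 1 library per bar, with 95% counting intervals. miR-82-3p is at 158871 in *glp-1(e2144)*, 158208 in WT and 158667 in ALG-1/OE, and at 205332 in ctrl. The other strands lie between 32674 (miR-58a-3p in ALG-1/OE) and 67008 (miR-81-3p in *glp-1(e2144)*).

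mir-58b was without reads in every library, on its hairpin and on both strands. A count of 0 allows up to 3 reads, or 5.59 RPM in *glp-1(e2144)* mutants against 14.2 in WT, the limit in ALG-1/OE being 12.6 RPM against 17.1 in ctrl. Its level was therefore not detectable at this depth.

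The family's members were next compared with each other, since a change of scaling cancels in the ratio of 2 members. By hairpin, mir-82 made up 47.0% of the family in *glp-1(e2144)* mutants against 51.0% in WT, while ALG-1/OE worms had 54.6% against 56.8% in ctrl. mir-81 made up 19.8% in *glp-1(e2144)* mutants against 17.8% in WT, while ALG-1/OE worms had 19.1% against 13.3% in ctrl. mir-80 made up 19.7% in *glp-1(e2144)* mutants against 17.6% in WT, while ALG-1/OE worms had 15.0% against 15.6% in ctrl. mir-58a made up 13.5% in *glp-1(e2144)* mutants against 13.6% in WT, while ALG-1/OE worms had 11.3% against 14.4% in ctrl. The family in *glp-1(e2144)* thus held less mir-82 and more mir-80 and mir-81 than in WT, and in ALG-1/OE it held more mir-81 and less of the other members than in ctrl. The share of mir-58a in *glp-1(e2144)* and WT did not differ beyond counting error.

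**Figure D3:**
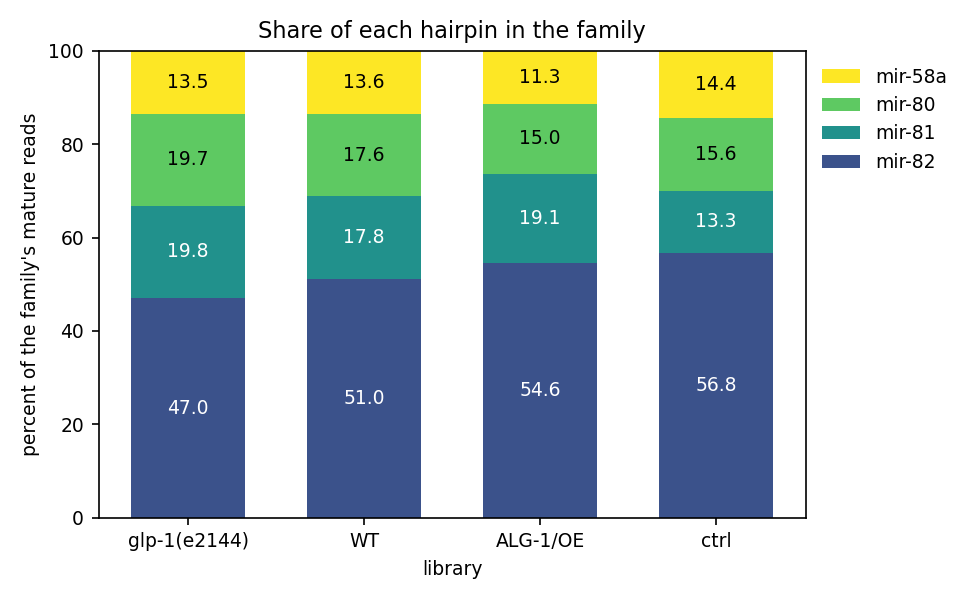
Share of each hairpin in the family's mature reads (y axis, percent) in the 4 libraries (x axis), with 5p and 3p reads summed and the values printed in the bars. mir-82 makes up between 47.0% in *glp-1(e2144)* and 56.8% in ctrl, and mir-81 between 13.3% in ctrl and 19.8% in *glp-1(e2144)*.

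The 4 abundant 3p strands form 6 pairs in each comparison. For *glp-1(e2144)* over WT, miR-80-3p and miR-81-3p had like ratios, with a log2 ratio of their ratios of 0.02 (-0.03 to 0.06), and both lay above miR-82-3p, by 0.29 (0.26 to 0.33) and 0.28 (0.24 to 0.31). For ALG-1/OE over ctrl, the widest pair was miR-58a-3p and miR-81-3p, with -0.86 (-0.92 to -0.81). There miR-80-3p and miR-82-3p had like ratios within counting error, with 0.03 (-0.02 to 0.08), and miR-81-3p lay above miR-82-3p by 0.58 (0.53 to 0.62). The widest pair between the control libraries, ctrl over WT, was miR-81-3p and miR-82-3p, with -0.57 (-0.62 to -0.53). The intervals of these pairs are normal approximations of the counting error. The comparison of ALG-1/OE with ctrl shares the ctrl library with that of ctrl with WT, which in turn shares WT with that of *glp-1(e2144)*.

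The 5p strands, which are mostly degraded, differed widely among the hairpins. mir-80 gave the most 5p reads, with 1409 in *glp-1(e2144)* mutants against 561 in WT, while ALG-1/OE worms had 615 against 769 in ctrl. mir-58a gave 421 in *glp-1(e2144)* mutants against 49 in WT, while ALG-1/OE worms had 76 against 66 in ctrl. mir-81 gave 5 in *glp-1(e2144)* mutants against 9 in WT, while ALG-1/OE worms had 8 against 5 in ctrl. mir-82, with the most 3p reads of all, gave only 8 in *glp-1(e2144)* mutants against 4 in WT, while ALG-1/OE worms had 2 against 7 in ctrl. Over the whole family, 5p strands made up 1.02% of reads in *glp-1(e2144)* mutants against 0.952% in WT, while ALG-1/OE worms had 1.01% against 1.34% in ctrl. The order of abundance of the 5p strands was thus not that of the 3p strands. Over all hairpins of 100 reads or more, the rarer strand had a median share of 0.621% in *glp-1(e2144)* mutants against 1.55% in WT, while ALG-1/OE worms had 1.44% against 0.689% in ctrl.

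miR-58a-5p was the strand of the family that differed most in *glp-1(e2144)* among those with at least 10 reads in both libraries. Its level was 784 RPM in *glp-1(e2144)* (95% interval 711 to 863) against 232 in WT (172 to 307), and 319 in ALG-1/OE (251 to 399) against 377 in ctrl (292 to 480). *glp-1(e2144)* stood above the other libraries, whose neighbours in order did not differ beyond counting error. The log2 ratio of *glp-1(e2144)* over WT was 1.76 (1.33 to 2.21), a 3.38-fold difference, and between 1.58 and 1.82 under the alternative scalings. For ALG-1/OE over ctrl it was -0.24 (-0.74 to 0.26), and for ctrl over WT it was 0.70 (0.15 to 1.26).

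The 3p strand of the same hairpin did not differ to this degree. The 5p share of mir-58a was 1.72% (1.57% to 1.90%) in *glp-1(e2144)* mutants against 0.552% (0.408% to 0.729%) in WT, while ALG-1/OE worms had 0.967% (0.763% to 1.21%) against 0.725% (0.561% to 0.922%) in ctrl. The odds of a 5p read were 3.16 times as high in *glp-1(e2144)* as in WT, a log2 odds ratio of 1.66 (1.23 to 2.12) that does not depend on the scaling. For ALG-1/OE over ctrl the log2 odds ratio was 0.42 (-0.08 to 0.92). In *glp-1(e2144)* and WT, 31 hairpins had 10 reads or more from their 5p and as many from their 3p strand, of which 6 (19.4%) had a log2 odds ratio above 1 and 6 (19.4%) one below -1, so log2 odds ratios past 1 were not rare. Of the 2 family hairpins with that many reads, mir-58a was above 1. Because 5p reads of mir-58a also fall on the non-coding RNA Y67D8A.6, their origin was not tested.

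miR-80-5p went a different way. Its level was 2624 RPM in *glp-1(e2144)* mutants against 2657 in WT, while ALG-1/OE worms had 2582 against 4393 in ctrl. The *glp-1(e2144)*, WT and ALG-1/OE libraries did not differ beyond counting error, and ctrl stood above them. The log2 ratio was -0.02 (-0.16 to 0.13) for *glp-1(e2144)* over WT, -0.77 (-0.92 to -0.61) for ALG-1/OE over ctrl and 0.73 (0.57 to 0.89) for ctrl over WT. With miR-35 to miR-42 left out of the total, *glp-1(e2144)* over WT gave -0.19 (-0.33 to -0.05), beyond counting error. The 5p share of mir-80 was 3.94% (3.74% to 4.15%) in *glp-1(e2144)* mutants against 4.86% (4.48% to 5.27%) in WT, while ALG-1/OE worms had 5.92% (5.47% to 6.39%) against 7.79% (7.27% to 8.34%) in ctrl. The log2 odds ratio of a 5p read was -0.32 (-0.46 to -0.17) for *glp-1(e2144)* over WT and -0.43 (-0.59 to -0.26) for ALG-1/OE over ctrl. It was 0.72 (0.56 to 0.89) for ctrl over WT, so the control libraries lay further apart than either strain from its control.

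**Figure D4:**
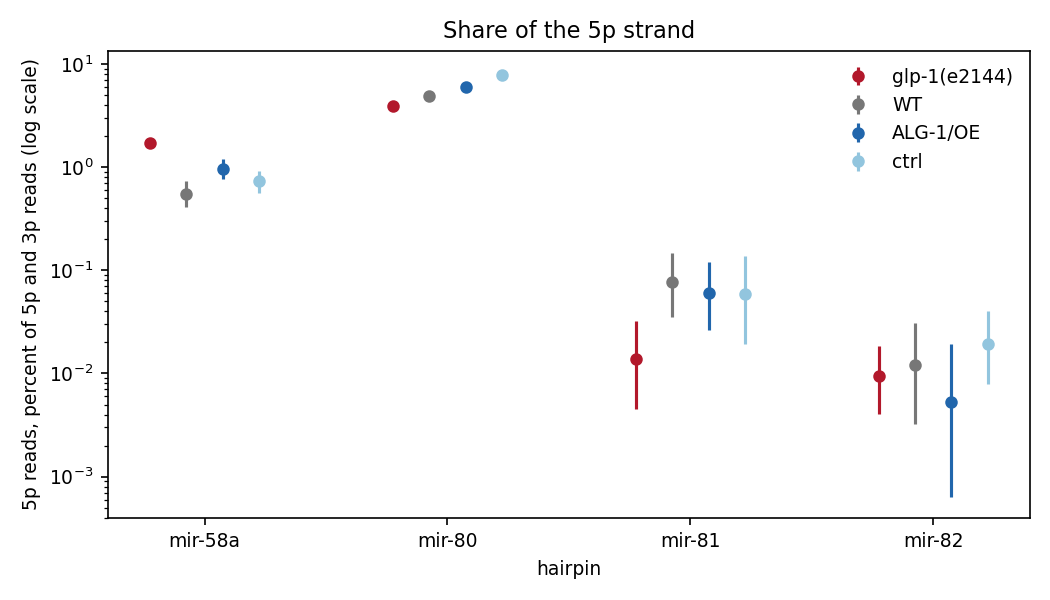
Share of 5p reads among the 5p and 3p reads of each hairpin (y axis, percent, log scale) in the 4 libraries, with 95% Clopper-Pearson intervals. mir-80 lies between 3.94% and 7.79%, mir-58a between 0.552% in WT and 1.72% in *glp-1(e2144)*, and mir-81 and mir-82 below 0.1% in every library.

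In ALG-1/OE over ctrl, 1 of 32 hairpins (3.12%) had a log2 odds ratio of the 5p strand above 1 and 1 (3.12%) below -1, and neither was of the family. In ctrl over WT these were 4 of 33 (12.1%) and 2 (6.06%), again none of them of the family. The 5p shares of mir-81 and mir-82 rested on 9 reads or fewer each. mir-81 had 0.0139% (0.00451% to 0.0324%) in *glp-1(e2144)* mutants against 0.0774% (0.0354% to 0.147%) in WT, a log2 odds ratio of -2.48 (-4.40 to -0.75). For mir-82 the intervals of all libraries overlapped, with 0.00938% in *glp-1(e2144)* mutants against 0.0120% in WT, while ALG-1/OE worms had 0.00529% against 0.0195% in ctrl.

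Reads on the family's hairpins outside the annotated strands were few. They were 8 of 181465 hairpin reads in *glp-1(e2144)* mutants against 1 of 65457 in WT, and 2 of 69238 in ALG-1/OE worms against 3 of 63338 in ctrl, all of them on mir-58a.

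The study applied a 2-fold cut-off to counts scaled by all reads per sample. On that scale it reported an overall increase in miRNA abundance in *glp-1(e2144)* and ALG-1/OE, which shares of miRNA reads cannot show. Which strands of the family pass the cut-off on that scale was not tested. On shares of miRNA reads, few strands of the family were past this 2-fold cut-off, and none of the abundant 3p strands. In *glp-1(e2144)* over WT, 1 of the 8 strands measured was above it, miR-58a-5p, where 9.55% of all 199 miRNAs with reads in both libraries were. 1 of the 8 was below it, miR-81-5p, with 5 reads against 9 and a log2 ratio of -2.19 (-4.12 to -0.46), where 27.1% of all miRNAs were. In ALG-1/OE over ctrl, 0 of 8 were above the cut-off, where 11.3% of all 204 were, and 1 was below it, miR-82-5p, with 2 reads against 7 and a log2 ratio of -2.25 (-5.55 to 0.14), where 6.86% were. In ctrl over WT, 1 of 8 was above it, miR-82-5p, with 7 reads against 4 and a log2 ratio of 1.08 (-0.90 to 3.30), where 10.6% of all 198 were, and 0 were below it, where 11.1% were. Beside these shares, counts of 0 or 1 among 8 strands are no result about the family.

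The median log2 ratio of the 8 strands was 0.05 for *glp-1(e2144)* over WT, beside -0.01 over all 199 miRNAs. For ALG-1/OE over ctrl it was -0.36, beside 0.14 over all 204. Read numbers differ between these groups. When 50 reads were required of both libraries, the median was 0.09 over 5 strands of the family and 0.19 over all 78 for *glp-1(e2144)*, and -0.36 over 6 strands and -0.03 over all 81 for ALG-1/OE. For ctrl over WT the median was 0.34 over the 8 strands beside 0.04 over all 198, and 0.30 over 5 strands beside 0.07 over 79 with 50 reads. This comparison and that of ALG-1/OE share the ctrl library, and their family medians had opposite signs. By the counting intervals, 4 of the 8 strands were higher in *glp-1(e2144)* than in WT and 1 lower, beside 28.1% and 21.6% of all miRNAs. In ALG-1/OE, 1 was higher and 4 lower than in ctrl, beside 18.6% and 14.2%. In ctrl, 4 were higher and 1 lower than in WT, beside 20.7% and 21.2%. These shares grow with the number of reads, and the family's 3p strands have many. Where both libraries held 50 reads, 3 of 5 strands were higher in *glp-1(e2144)* and 0 lower, beside 52.6% and 20.5% of all miRNAs. In ALG-1/OE, 1 of 6 was then higher and 4 lower, beside 33.3% and 32.1%. In ctrl over WT, 3 of 5 were then higher and 1 lower, beside 39.2% and 36.7%. Counts this small are given as a description.

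**Figure D5:**
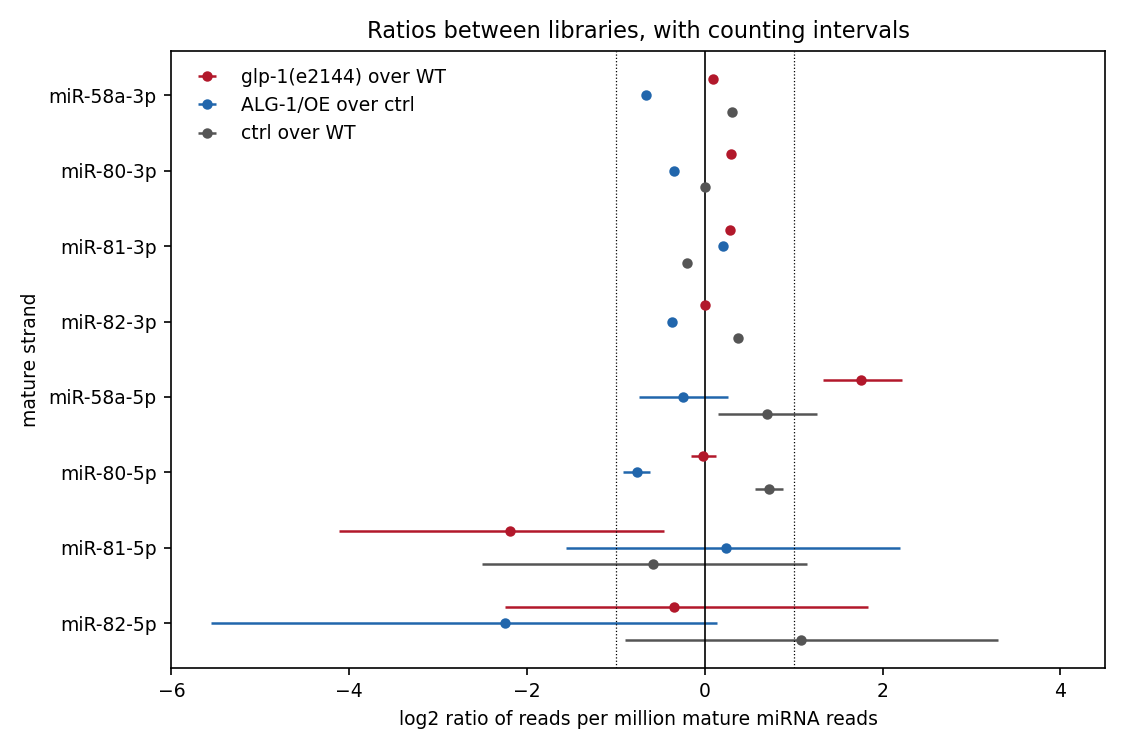
Log2 ratio of RPM (x axis) of the 8 strands with reads (rows) for *glp-1(e2144)* over WT, ALG-1/OE over ctrl and ctrl over WT, with 95% counting intervals and dotted lines at the 2-fold cut-off. The 3p strands lie between -0.66 and 0.38, and miR-58a-5p in *glp-1(e2144)*, at 1.76, is the one value whose interval lies wholly past the cut-off.

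The pattern of the family's summed reads over the 4 libraries was compared with that of 67 other miRNAs with at least 50 reads in every library, by the Euclidean distance between centred log2 levels. The nearest were miR-47-3p (0.10), miR-77-3p (0.12) and miR-86-5p (0.15). miR-77-3p had 5738 RPM in *glp-1(e2144)* mutants against 4997 in WT, while ALG-1/OE worms had 4518 against 5518 in ctrl. Among the family's own 3p strands the distance to the summed pattern was 0.21 for miR-82-3p, 0.26 for miR-58a-3p, 0.35 for miR-80-3p and 0.45 for miR-81-3p. The summed pattern contains these strands, with mir-82 as 47.0% to 56.8% of the sum, so their distances are partly built in. The 3 nearest miRNAs were picked for their small distances out of the 67, so their lower values are no result about the family. The distances are descriptions over 4 libraries that share their totals.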

How the data were processed

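Using the Fastx-ToolKit, the authors trimmed adapters and dropped short reads, then aligned to ce10 with Bowtie2 and deposited raw counts of reads on 697 hairpin and mature rows per library. Versions and the treatment of strand and of multiply aligned reads were not given in the sources used here. The labels name a SOLiD library kit and the methods an Illumina instrument, so the platform is uncertain. The study normalized by all reads per sample; these totals were not used here, so counts were divided by the total of the 434 mature names, with 1 row per name, the one with the most reads. Ratios used strands with reads in both libraries, no pseudocount, and Clopper-Pearson intervals of the pair's reads; odds ratios of 5p reads had exact conditional intervals. Beside the markers, the comparison families and the neighbouring hairpins mir-58c and mir-238, named miRNAs were all family members and the 3 nearest in pattern. Members, lists and comparisons were chosen with earlier results of these data known. The search for other miRNAs with the same seed was not run. The alternatives were other scalings (TMM factors from edgeR 4.0.16), a minimum of 10 reads, a 1.5-fold cut-off, a pseudocount of 0.5 reads, summed rows and hairpin rows. Sums of miR-81-3p and miR-82-3p, medians and counting interval calls over miRNAs with at least 50 reads and counts of changed 5p shares were added after seeing the data. Interval calculations were tested on simulated data. Python 3.11.15, scipy 1.17.1 and pandas 2.3.3 were used.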

Additional observations from a re-analysis of the deposited data

How the results depend on the processing

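The 3p ratios rest on at least 7782 reads in each library, and the spread between worm pools was not measured, while miR-81-5p and miR-82-5p rest on 2 to 9 reads. No paired analysis was possible because each group has 1 library, and for the same reason no library could be left out. Leaving the miR-35 to miR-42 family out of the total shifted every log2 ratio of *glp-1(e2144)* over WT by -0.17 and gave -0.048 for the family and -0.078 for miR-58a-3p, both opposite in sign. The family's ratio there was 0.18 against the total without the bantam family and 0.079 with TMM factors. For ALG-1/OE over ctrl it was -0.28 without miR-35 to miR-42, -0.47 without the bantam family, -0.49 with TMM factors and -0.46 with the median of ratios. For ctrl over WT these were 0.15, 0.34, 0.29 and 0.19. Summed with miR-82-3p, miR-81-3p turned to -0.24 in ALG-1/OE over ctrl and to 0.25 in ctrl over WT. A minimum of 10 reads left 1 of 6 strands past 2-fold in *glp-1(e2144)* over WT, beside 23.4% of all 128 miRNAs, and 0 of 6 in ALG-1/OE over ctrl and in ctrl over WT, beside 4.58% of 131 and 10.1% of 129. A 1.5-fold cut-off gave 3 of 8 in ALG-1/OE over ctrl and in ctrl over WT, in place of 1, beside 32.4% and 48.5% of all miRNAs. Of 174 alternative values of single strands, 128 stayed within the counting interval of the reported value, 43 moved beyond it and 3, given above, changed the sign of a value beyond counting error. A further 5, of miR-80-3p, miR-80-5p and miR-82-3p, turned the sign of a value within counting error. For ctrl over WT, miR-80-3p was -0.076 without miR-35 to miR-42. Also, of 48 alternative shares 39 stayed within their interval. Under the scalings tried, all built from miRNA reads, the count of strands past 2-fold was unchanged in every comparison. The study's scaling by all reads per sample was not among them.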
